A study of Mus musculus with 2 samples.

Results

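The genes that mark neurons of the upper cortical layers were examined in sorted cells of the mouse embryonic cortex. The set has 8 members, Cux1, Cux2, Pou3f1, Pou3f2, Pou3f3, Mef2c, Lmo4 and Rorb, taken by gene symbol from the 20373 rows that each deposited table lists, and each was found on 1 row. RNA was sequenced from neural progenitor cells (NPCs) and from neurons of the cortex at embryonic day 15.5, with 1 library of each. The embryos carried Nestin-GFP, a green reporter under control elements of the progenitor gene Nestin, and DCX-mRFP, a red reporter under those of the young-neuron gene doublecortin. Mothers or fathers heterozygous for the first were crossed with partners homozygous for the second, and cortices of embryos with both reporters were used for both groups. Green cells were sorted as NPCs and cells of both colours as neurons, so cells with the red reporter alone are in neither group as the labels describe it. No treatment and no mutation of an endogenous gene is named, and how many embryos were pooled is not given in the sources used here. The study set transcript levels in progenitors and their daughter neurons beside RNA polymerase II pausing and histone methylation, which were not analysed here.

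The cortex is built from the inside outward, so that neurons of the deep layers are born before those of layers 2 to 4, which are being produced at this stage. Neurons of the upper layers mostly send axons within the cortex and across the corpus callosum. The members, taken as genes of their identity, encode transcriptional regulators of several kinds. These are the cut homeodomain proteins Cux1 and Cux2, the POU homeodomain proteins of class III, the MADS-box factor Mef2c, the nuclear receptor Rorb and the LIM-only adaptor Lmo4. Several of them, Cux2 and the POU factors in particular, are known to be transcribed already in dividing cells of the subventricular and ventricular zones.

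The recovered reads on listed genes numbered 26346226 for NPCs and 23312054 for neurons. Levels are stated in CPM, counts per 1000000, with the authors' own scaling between the libraries kept. Progenitor markers were lower in the neuron library but present there. The summed level of 8 radial glia markers was 1711 CPM in NPCs and 618 in neurons, and that of 6 intermediate progenitor markers was 2052 and 836. The sum of 7 pan-neuronal markers was 4940 CPM in NPCs and 7449 in neurons, so both libraries hold transcripts of both kinds of cell. Of these 7 markers 6 were higher in neurons, 3 of them by 2-fold or more. Rbfox3 alone went the other way, 1.08-fold higher in NPCs (1.02 to 1.14). Doublecortin itself (Dcx) was at 2522 and 3294 CPM. With RNA from whole sorted populations, fewer cells of a type and less RNA per cell cannot be told apart. No replicate exists, so no p-value was computed, and the 95% intervals below cover counting error only.

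All 8 upper-layer genes were transcribed in both libraries, and 7 of them differed by less than 2-fold. Only Mef2c, on the neuron side, reached 2-fold, and none did so on the NPC side. The levels ran from 22.1 CPM (Rorb) to 543 CPM (Pou3f3) in NPCs and from 26.5 to 499 CPM, for the same genes, in neurons. The summed level of the 8 was 1524 CPM in NPCs and 1587 in neurons, a ratio of 1.04. Higher in neurons were 6 members and higher in NPCs were 2, Pou3f2 and Pou3f3, the most abundant members, which weigh most in these sums. Calls of 2-fold were made on log2((neuron + 1)/(NPC + 1)) among genes that reached 1 CPM in either library. All 8 members passed that filter, and at 596 reads or more per member and library they also passed a minimum of 10 CPM. Of the 12693 genes past the filter, 3.85% were called as higher in neurons and 6.73% as higher in NPCs by this rule. The share of called members, 12.5%, rests on a single gene. The median log2 ratio of the members was 0.25, against −0.0049 over all genes past the filter, for which the 25th and 75th percentiles were −0.26 and 0.24. Counting intervals of the fold left out 1 for 8 of 8 members (7 when total reads set the scaling), but they did so for 68.1% of all genes past the filter as well.

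**Figure D1:**
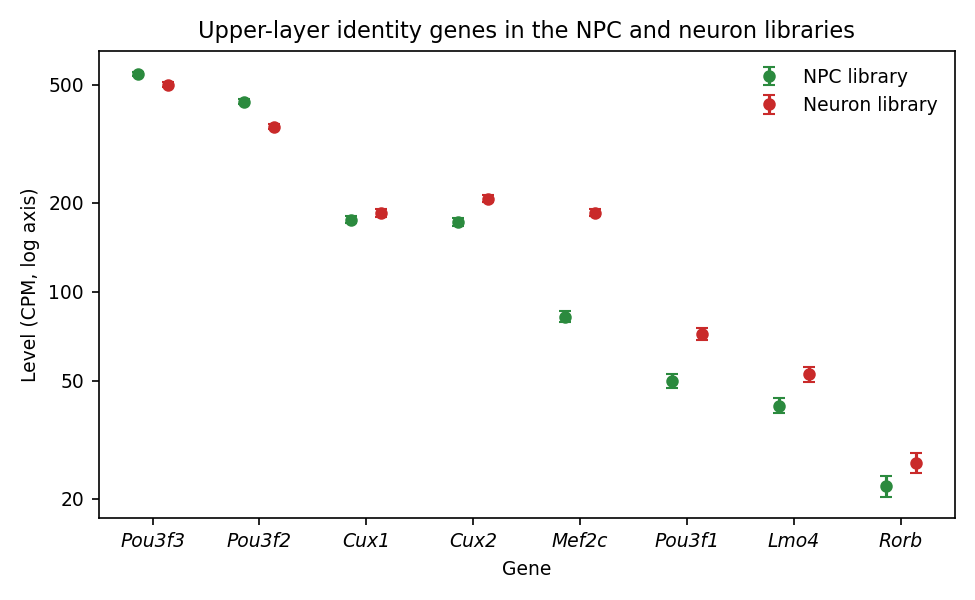
Level of each upper-layer gene in CPM on a log axis (vertical) in the NPC library (green) and the neuron library (red), with exact 95% Poisson counting intervals and 1 library per point. Pou3f3 and Pou3f2 lie highest and are higher in NPCs, while Mef2c has the widest gap, 82.5 CPM in NPCs and 185 in neurons.

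The members fell into a graded order from neuron to NPC. By fold without an added value, Mef2c (2.24-fold higher in neurons) came first, followed by Pou3f1 (1.44-fold), Lmo4 (1.27-fold), Rorb and Cux2 (both 1.20-fold) and Cux1 (1.05-fold). Pou3f3 (1.09-fold) and Pou3f2 (1.21-fold) were higher in NPCs. Setting the folds of 2 genes against each other removes the scaling between the libraries. On that measure Mef2c stood above Pou3f1 by 1.56 times (95% counting interval 1.42 to 1.70) and above Pou3f2 by 2.73 times (2.57 to 2.89). Rorb could not be told from Lmo4 (ratio of the folds Lmo4 to Rorb 1.06, 0.923 to 1.23) or from Cux2 (Rorb to Cux2 1.0005, 0.886 to 1.13). The other neighbouring pairs in this order were 1.12 to 1.14 times apart, with counting intervals that left out 1. Those intervals hold no spread between libraries, so whether the order of such close members would recur could not be tested. Among the 12693 genes past the filter, ranked from the neuron side, Mef2c was number 319 and Pou3f1 number 1572. At the other end Pou3f2 was number 9657, with a lower log2 ratio found for 23.9% of the genes.

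**Figure D2:**
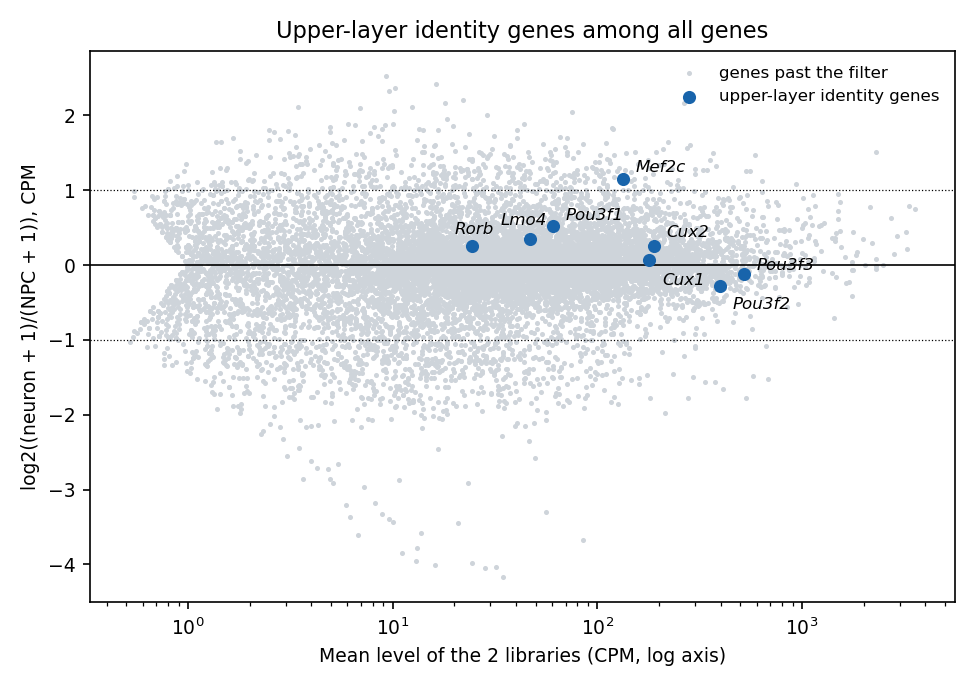
Log2 of (neuron + 1)/(NPC + 1) in CPM (vertical) against the mean level of both libraries on a log axis (horizontal) for the 12693 genes past the filter (grey) and the 8 upper-layer genes (blue), with dotted lines at 2-fold. Mef2c lies above the upper dotted line at 1.16, and the other 7 lie between −0.28 and 0.52.

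Cux1 and Cux2 carry cut repeats and a homeodomain and promote dendrites and spines of upper-layer neurons. Both were nearly as abundant in the NPC library as in the neuron library. Cux1 was at 175 CPM in NPCs (4727 reads) and 184 CPM in neurons (4203 reads), a neuron-to-NPC fold of 1.05 (1.01 to 1.10). This difference rests on the scaling, since with total reads in its place the fold was 1.005 and its interval, 0.964 to 1.05, held 1. Cux2 was at 172 CPM in NPCs (4644 reads) and 206 CPM in neurons (4696 reads), 1.20-fold higher in neurons (1.15 to 1.25). Cux2 thus took 49.6% (48.5 to 50.6) of the reads of the pair in NPCs and 52.8% (51.7 to 53.8) in neurons. The Cux1 locus also yields CASP, a Golgi protein without the homeodomain, and a value per gene does not separate the transcripts. Gm16599, a gene on the opposite strand, overlaps exons of Cux1 over 394 bases in the GENCODE annotation, and whether reads were counted by strand is not given in the sources used here.

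The class III POU factors bind octamer-like sites, and Pou3f2 and Pou3f3 are needed together for the production and migration of upper-layer neurons. Pou3f2 (Brn2) and Pou3f3 (Brn1) held the highest levels of the set. They were somewhat higher in the NPC library, whereas Pou3f1 (Oct6) was higher in the neuron library. Pou3f3 was at 543 CPM in NPCs (14639 reads) and 499 CPM in neurons (11375 reads), 1.09-fold higher in NPCs (1.06 to 1.11). Pou3f2 was at 438 CPM in NPCs (11818 reads) and 361 CPM in neurons (8217 reads), 1.21-fold higher in NPCs (1.18 to 1.25). Both directions held under each of the 4 scalings, with neuron-to-NPC folds of 0.878 to 0.920 for Pou3f3 and 0.786 to 0.823 for Pou3f2. Pou3f1 was at 49.9 CPM in NPCs (1346 reads) and 72.0 CPM in neurons (1640 reads), 1.44-fold higher in neurons (1.34 to 1.55). The remaining gene of the class, Pou3f4 (Brn4), which is no member of the set, was low, with 9.56 and 4.30 CPM and an NPC-to-neuron fold of 2.22 (1.76 to 2.84). Among the reads of the 4 genes, the share of Pou3f1 was 4.80% (4.55 to 5.05) in NPCs and 7.69% (7.33 to 8.05) in neurons. That of Pou3f2 was 42.1% (41.5 to 42.7) and 38.5% (37.9 to 39.2), and that of Pou3f3 52.2% (51.6 to 52.8) and 53.3% (52.7 to 54.0). The fold of Pou3f1 was 1.75 times that of Pou3f2 (1.62 to 1.89) and 1.57 times that of Pou3f3 (1.45 to 1.69). In the same libraries the marker sums of radial glia and intermediate progenitors were 2.77-fold and 2.45-fold higher in NPCs, larger gaps than those of Pou3f2 and Pou3f3. All 6 pericyte markers and all 5 oligodendrocyte lineage markers were also higher in NPCs, with sums of 202 and 9.35 CPM and of 76.8 and 2.81 CPM. Both lists hold Cspg4, at 31.2 and 1.01 CPM. All 8 endothelium markers were higher in NPCs too, at lower sums of 21.8 and 3.34 CPM. No marker of these lists was at 0, and their part in the POU values was not tested.

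Because these 4 genes are alike in sequence, it was asked how far their reads could be confused. They are intronless, and the stretch of the POU-specific domain below holds a run of 20 bases common to all 4. It lies within the longest run of Pou3f1 and Pou3f2, and runs common to all 4 elsewhere were not searched for. The windows of 47 bases come from GENCODE transcripts on GRCm38, lie at chr4:124658589-124658635 on the plus strand (Pou3f1), chr4:22487146-22487192 on the minus strand (Pou3f2), chr1:42698226-42698272 on the plus strand (Pou3f3) and chrX:110815170-110815216 on the plus strand (Pou3f4), and are coding. Capitals mark the 38 positions that are identical in all 4 genes.
Pou3f1: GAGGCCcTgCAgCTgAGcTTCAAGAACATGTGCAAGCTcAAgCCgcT
Pou3f2: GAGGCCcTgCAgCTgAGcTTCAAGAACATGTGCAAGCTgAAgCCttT
Pou3f3: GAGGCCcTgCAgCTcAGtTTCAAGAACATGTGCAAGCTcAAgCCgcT
Pou3f4: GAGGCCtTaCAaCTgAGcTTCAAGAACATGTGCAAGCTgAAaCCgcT
Between 2 genes of the class the longest identical coding runs were 38 bases (Pou3f1 and Pou3f2), 29 bases (Pou3f1 and Pou3f3) and 23 bases (Pou3f2 and Pou3f3). No window of 50 bases was shared between genes of the class, so reads of that length or longer that match exactly belong to 1 of them. The read length is not given in the sources used here. With genes outside the class, 0.560% of the 50-base windows of Pou3f2 and 0.245% of those of Pou3f3 were shared. For Pou3f1 the share was 7.42%, all of it with Gm2164, a gene on the opposite strand whose exons overlap those of Pou3f1 over 330 bases.

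Mef2c, a MADS-box factor that acts with calcium signals in the differentiation and synapse development of cortical neurons, showed the widest difference of the set. It was at 82.5 CPM in NPCs (2224 reads) and 185 CPM in neurons (4216 reads), 2.24-fold higher in neurons (2.13 to 2.36), with folds of 2.14 to 2.24 over the 4 scalings. Its paralogs Mef2a and Mef2d were flatter. Mef2a was at 32.5 CPM in NPCs and 41.9 CPM in neurons, a fold of 1.29 (1.17 to 1.41). Mef2d was at 37.2 CPM in both libraries, with an interval of 0.912 to 1.10 for its fold. Mef2b had 8 and 3 reads, too few to place it, with an interval of 0.0759 to 1.85 for its fold. Mef2c therefore took 54.1% (52.5 to 55.6) of the reads of the family in NPCs and 70.0% (68.8 to 71.2) in neurons. Microglia and some interneurons also transcribe Mef2c. All 10 microglia markers were higher in the neuron library, with sums of 44.8 CPM in NPCs and 184 CPM in neurons and with Csf1r, the receptor for their survival factor, at 10.9 and 46.8 CPM. The level of Mef2c differed by 103 CPM between the libraries. Of 8 Cajal-Retzius markers 7 were higher in neurons as well, with sums of 129 and 493 CPM, of which Reln held 95.8 and 434. Of 10 interneuron markers 9 were higher in NPCs, with sums of 390 and 276 CPM. None of these markers was at 0 in either library, and their part in the Mef2c difference was not tested.

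**Figure D3:**
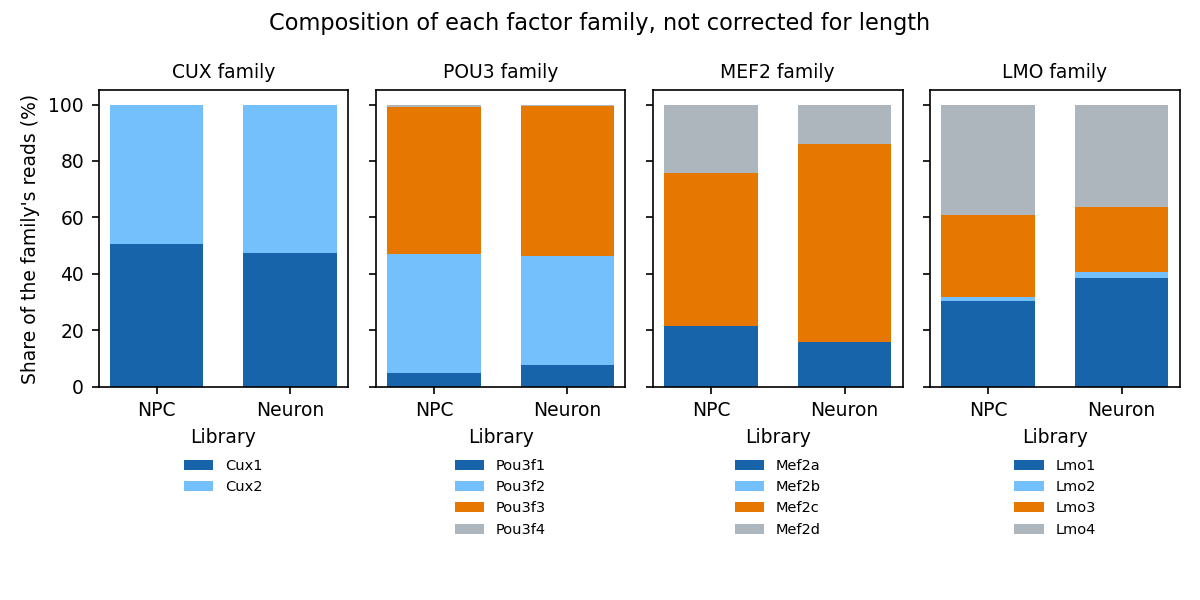
Share of each family's reads (vertical, percent) that fell on each of its genes in the NPC and the neuron library, 1 bar per library, for the CUX, POU3, MEF2 and LMO families and without correction for gene length. The share of Mef2c is 54.1% in NPCs and 70.0% in neurons, while the CUX and POU3 bars are alike in both libraries to within about 4 percentage points.

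The bases before the annotated starts of Pou3f2, Pou3f3 and Mef2c are shown because these genes stand at the 2 ends of the order of folds. They are 250 bases of RefSeq promoter windows on GRCm38.p6, at chr1:42695518-42695767 on the plus strand (Pou3f3), chr4:22488367-22488616 on the minus strand (Pou3f2) and chr13:83503784-83504033 on the plus strand (the most upstream of 3 Mef2c starts). The capitals mark CCAAT (or ATTGG on the other strand), the box bound by NF-Y, GGGCGG, the box of Sp factors, and TATAAA (or TTTATA on the other strand).
Pou3f3: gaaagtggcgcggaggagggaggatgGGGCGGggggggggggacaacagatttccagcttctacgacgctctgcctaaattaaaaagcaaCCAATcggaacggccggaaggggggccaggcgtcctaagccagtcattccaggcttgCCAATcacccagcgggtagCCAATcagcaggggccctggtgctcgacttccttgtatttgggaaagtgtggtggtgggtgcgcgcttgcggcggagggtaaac
Pou3f2: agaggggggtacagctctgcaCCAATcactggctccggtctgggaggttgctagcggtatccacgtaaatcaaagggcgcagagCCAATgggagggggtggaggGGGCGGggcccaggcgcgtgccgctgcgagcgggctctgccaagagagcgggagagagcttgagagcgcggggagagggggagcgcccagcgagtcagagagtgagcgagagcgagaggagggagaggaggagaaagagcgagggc
Mef2c: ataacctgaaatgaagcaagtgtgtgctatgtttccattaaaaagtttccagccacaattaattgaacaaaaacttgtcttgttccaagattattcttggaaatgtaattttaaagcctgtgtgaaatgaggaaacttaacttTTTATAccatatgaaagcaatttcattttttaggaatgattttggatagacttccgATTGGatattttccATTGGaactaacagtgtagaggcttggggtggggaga
The windows of Pou3f3 and Pou3f2 are rich in CG dinucleotides, with 15 and 18 of them, against a median of 6 over 32841 promoter windows of the same length. They hold 3 and 2 CCAAT boxes, counts that 2.79% (3 or more) and 10.1% (2 or more) of all windows reach, and 1 GGGCGG each. The Mef2c window has a single CG and 33.6% G and C, against a median of 52.4%, and only 7.86% of windows have fewer CG dinucleotides. It holds 2 CCAAT boxes and 1 TATAAA, a motif found in 12.4% of windows. The other 2 Mef2c windows have 6 and 4 CG dinucleotides. Among the remaining members, the windows at the most upstream start have 18 (Cux1), 40 (Cux2), 44 (Lmo4) and 18 (Rorb), and Pou3f1 has no entry in the table. The octamer ATGCAAAT of POU factors was found on neither strand in any of the 13 windows of 7 members, and occurs in 1.60% of all windows. ATCGAT, a site of cut homeodomain proteins, was found once, 72 bases before a second start of Cux2, and occurs in 0.728% of all windows. A match of letters is a description and shows no binding, and the tables do not say which start was used.

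Lmo4, a LIM-only protein that joins other factors through Ldb1 and takes part in the choice between callosal and subcortical neurons, was modestly higher in neurons. It was at 41.3 CPM in NPCs (1114 reads) and 52.6 CPM in neurons (1199 reads), 1.27-fold higher in neurons (1.17 to 1.38). Its paralog Lmo1 had a wider gap, from 32.1 CPM in NPCs to 55.7 CPM in neurons, a fold of 1.73 (1.59 to 1.89), and its fold was 1.36 times that of Lmo4 (1.21 to 1.54). Lmo3 was at 30.7 and 33.5 CPM, with an interval of 0.990 to 1.21 around its fold of 1.09. Lmo2, a factor of blood and vessel cells, was low, with 1.41 and 2.99 CPM and a neuron-to-NPC fold of 2.12 (1.40 to 3.24). The share of Lmo4 among the reads of the family was 39.1% (37.3 to 41.0) in NPCs and 36.3% (34.7 to 38.0) in neurons. These intervals overlap, but the difference of the shares was not tested.

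Rorb, the nuclear receptor that marks layer 4, was the member with the lowest level per library. It was at 22.1 CPM in NPCs (596 reads) and 26.5 CPM in neurons (603 reads), 1.20-fold higher in neurons (1.07 to 1.34). Its paralog Rora, which is known from the thalamus and from layer 4 after birth, had 14 reads in NPCs and 1 read in neurons and did not pass the filter. Of the 8 paralogs examined for all the families together, 6 passed the filter, with a median log2 ratio of 0.24. Beside 3.85% and 6.73% of all genes called as higher in neurons and in NPCs, 0 of these 6 were called by the 2-fold rule. That count depends on the settings, since with 0.1 CPM added Pou3f4 was called as higher in NPCs and Lmo2 as higher in neurons, and Pou3f4 was also called with total reads or the upper quartile as the scaling.

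To compare levels between genes, CPM values were divided by the length of the longest protein-coding transcript in GENCODE. Pou3f2 and Pou3f3 led on this scale too, at 78.4 and 73.3 CPM per kilobase in NPCs and 64.6 and 67.4 in neurons. Both lay above 95.3% of the 18376 genes with a length in neurons and above 96.3% in NPCs. Unlike the ranks given earlier, these shares are over genes not filtered by level, so genes without reads are included. Lmo4 followed at 24.7 in NPCs and 31.5 in neurons, which its short transcript of 1669 bases sets above both Cux genes. Mef2c moved from 13.1 CPM per kilobase in NPCs, place 6 of the 8, to 29.5 in neurons, place 4. Cux2 was at 19.6 and 23.5, Cux1 at 13.6 and 14.3 and Pou3f1 at 13.0 and 18.7. Rorb was last in both libraries, at 2.38 and 2.85. Per coding kilobase Pou3f3 stood above Pou3f2 in both libraries and Mef2c took place 4 in NPCs and place 3 in neurons, while Rorb stayed last, so the middle of the order depends on the gene model.

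Other genes of upper-layer or callosal neurons spread more widely than the 8 members. Of 8 such genes examined 7 passed the filter, of which 3 were called as higher in neurons and 0 as higher in NPCs. Among all genes past the filter the shares called were 3.85% and 6.73%. The count of 3 fell to 2, without Inhba, with 5 CPM added or at a minimum of 10 CPM. The median log2 ratio of the 7 genes was 0.15, or −0.033 among those reaching 10 CPM. Bhlhe22, a bHLH factor of area and layer identity, was 2.96-fold higher in neurons (2.83 to 3.09). Inhba, an activin subunit, had 1.67 and 8.16 CPM, a neuron-to-NPC fold of 4.89 (3.52 to 6.94). Plxnd1, a semaphorin receptor of callosal neurons, was at 26.3 and 57.6 CPM, with a fold of 2.19 (2.00 to 2.40). Higher in NPCs were Lhx2, Pvrl3 and Unc5d, named after their values were seen, at 1.50-fold, 1.68-fold and 1.16-fold. Unc5d is a netrin receptor known from the subventricular zone and upper layers, and like Pou3f2 and Pou3f3 it was abundant in both libraries, at 365 and 314 CPM.

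Deep-layer identity genes had a higher median than the upper-layer members. All 12 passed the filter, with a median log2 ratio of 0.56, and 8 of 12 were higher in neurons. The shares of all genes called were 3.85% as higher in neurons and 6.73% as higher in NPCs. The 2-fold rule called 2 as higher in neurons, Ldb2 (2.80-fold, 2.55 to 3.07) and Crym (5.46-fold, 3.25 to 9.66), and 2 as higher in NPCs, Etv1 (3.08-fold, 2.58 to 3.68) and Otx1, the latter named after its value was seen (2.09-fold, 1.91 to 2.28). Their summed level was 1382 CPM in NPCs and 2087 CPM in neurons, a ratio of 1.51 against 1.04 for the upper-layer members. The sum of the members is weighted by Pou3f3 (543 CPM in NPCs and 499 in neurons) and Pou3f2 (438 and 361 CPM). These are the only 2 members higher in NPCs. With 1 library per group this difference between the lists has no replicate check.

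**Figure D4:**
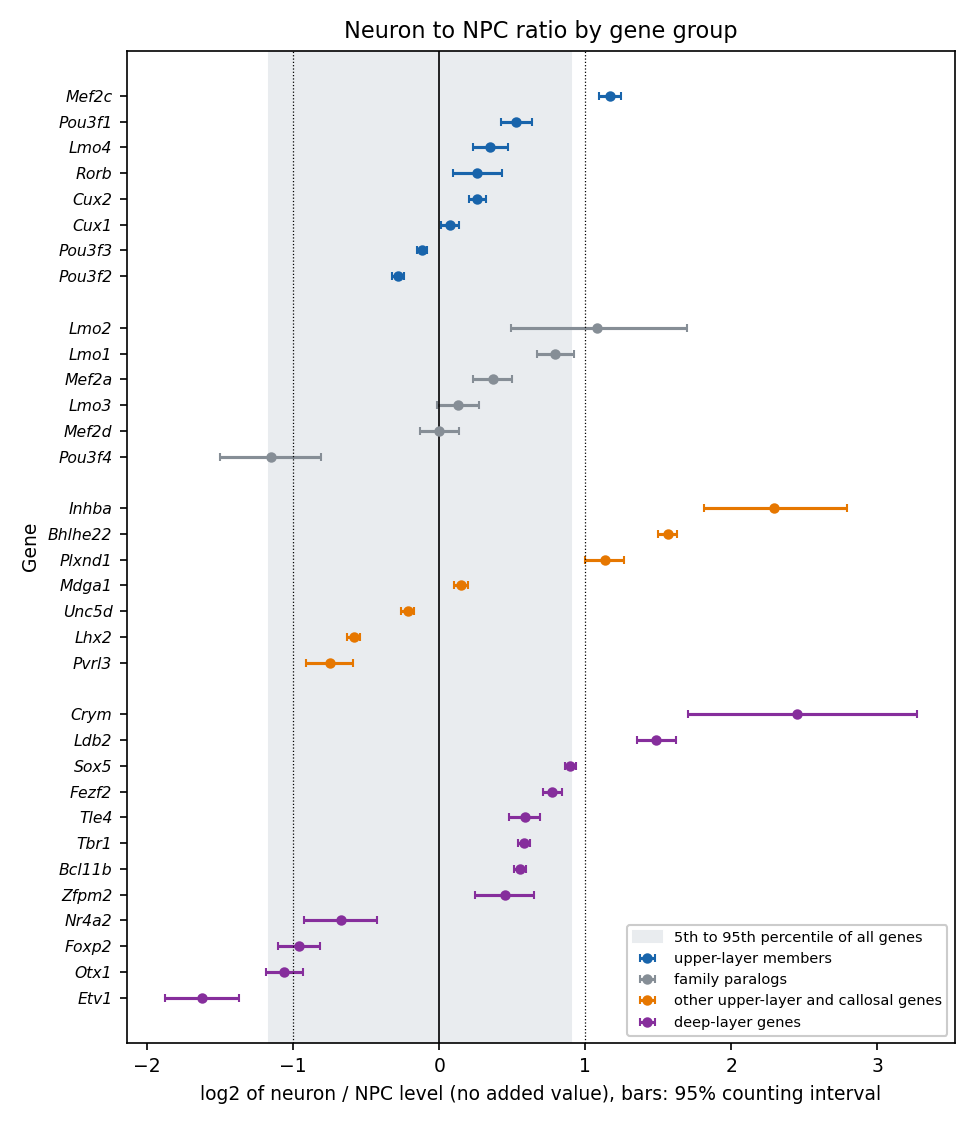
Log2 of the neuron to NPC level without an added value (horizontal) for each gene past the filter, grouped as upper-layer members, their paralogs, other upper-layer and callosal genes and deep-layer genes, with 95% counting intervals, dotted lines at 2-fold and the 5th to 95th percentile of all genes (−1.17 to 0.90, with 1 CPM added) in grey. Of the members Mef2c alone lies outside the grey band, whereas several genes of the other groups do.

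Transcripts of proteins that act with the members were examined as well. The median log2 ratio of 11 partner genes, all past the filter, was 0.13. Of them 0 were called as higher in neurons and 2 as higher in NPCs, beside 3.85% and 6.73% of all genes. Those 2 were Neurog2, the proneural factor that forms a complex with Lmo4 (502 CPM in NPCs, 170.0 in neurons, with a fold of 2.95, 2.85 to 3.06), and Sox2, a partner of POU factors in progenitors (98.1 and 34.1 CPM, 2.88-fold, 2.65 to 3.12). Hdac9, a class IIa deacetylase that represses Mef2 targets, was at 44.9 CPM in NPCs and 22.96 CPM in neurons, 1.96-fold higher in NPCs (1.76 to 2.17). It was called as higher in NPCs only with total reads as the scaling. The other deacetylases of this class in the list, named after their values were seen, did not share one direction. Hdac4 was 1.26-fold higher in NPCs (1.15 to 1.38), whereas Hdac5, the most abundant of them at 182 and 200.02 CPM, was 1.10-fold higher in neurons (1.05 to 1.14). Picked after their values were seen, Ldb1, the LIM-binding adaptor of Lmo4, was near equal at 321 and 335 CPM, and its partners Ssbp2 and Ssbp3 were 1.71-fold and 1.61-fold higher in neurons. Sox11, a neuronal Sox partner of POU factors and also picked in this way, had 3016 and 3503 CPM, a neuron-to-NPC fold of 1.16 (1.15 to 1.17).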

How the data were processed

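RNA of cells sorted by fluorescence was extracted with TRIzol and made into libraries with an Illumina TruSeq RNA kit, per the labels' protocols. Named in the submitters' processing notes, with no role or order, are the build mm9, edgeR, SAMtools 0.1.18, TopHat 1.2.0 and CASAVA 1.9. Not given in the sources used here are the annotation, the treatment of reads with several matches and the strand setting, and the coordinates printed are those of GRCm38. Deposited per gene was a signal of at least 0 in whole multiples of 0.952726 (NPC) and 1.127974 (neuron). Dividing by these steps gave whole reads, within 0.05, for 99.98% and 99.8% of rows. Neuron values under 0.01 were taken as 0. With 1 library per group no count test could be made, so no gene is called by one.

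Both libraries were divided by 25698104 to give CPM. Folds of single genes carry no added value and have exact Clopper-Pearson 95% intervals, and 2 folds were set against each other by the conditional odds ratio (SciPy 1.17.1). Shares within a family have exact Clopper-Pearson 95% intervals too. No molecular identifiers were used as far as is stated, so reads need not be independent molecules and the intervals hold counting error alone. A count of 3 reads is 0.111 CPM in NPCs and 0.132 in neurons. Alternatives were 3 other scalings (total reads, TMM by edgeR 4.0.16 in R 4.3.3, upper quartile), 0.1 or 5 CPM added, and a filter of 10 CPM or none. Only the folds of single genes and their intervals were tested on simulated reads, which held counting error alone. Named are all members and paralogs, up to 3 genes of each other list by the largest absolute log2 ratio past the filter, and abundant genes of marker lists. The members and lists were chosen with earlier results of these data known, and some list genes are not reported here, so lists are counted without them. Lengths matched by symbol for 90.2% of 20370 symbols.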

Additional observations from a re-analysis of the deposited data

How the results depend on the processing

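Under 3 other scalings, 2 other added values and 2 other filters the count of members at least 2-fold apart stayed at 1. An added value or a filter cannot turn a direction round, so only the scalings could check it. The direction of all 8 members held under those 3 scalings. With total reads as the scaling, however, the interval of Cux1 held 1. With total reads in place of the authors' scaling, the log2 ratios of 4 members moved outside their counting intervals, to 0.0070 for Cux1, 0.19 for Cux2, −0.35 for Pou3f2 and −0.19 for Pou3f3, because that scaling lowers every ratio (median over all genes −0.069). With 5 CPM added, the counts of all genes at least 2-fold higher in neurons and in NPCs were 238 and 399 in place of 489 and 854. The median log2 ratio of the other upper-layer and callosal genes was 0.15, but −0.033 among those reaching 10 CPM and 0.36 without a filter. Calls of these genes on the neuron side fell from 3 to 2 with 5 CPM added or at a minimum of 10 CPM. Without a filter the median of the paralogs was 0.063 in place of 0.24. Their count of 2-fold calls rose from 0 to 2 with 0.1 CPM added and to 1 with total reads or the upper quartile. The deep-layer calls fell from 2 to 1 in each direction with 5 CPM added, and from 2 to 1 on the neuron side at a minimum of 10 CPM. Partner calls on the NPC side rose from 2 to 3 with total reads, where Hdac9 was called too. No paired analysis was possible because each group has 1 library. Members had 596 reads or more per library, which keeps counting error low, and the spread between animals or sorts cannot be seen with 1 library per group.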
